A study of Mus musculus with 8 samples.

Results

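A set of 415 sites in the mouse genome had a LRH-1 peak listed only after the ovulatory signal. At these places the peak of open chromatin was lost from the list over the same hours. LRH-1 (NR5A2) is a nuclear receptor that sits on DNA as a single molecule, and FAIRE recovers DNA that is depleted of nucleosomes. The sites were chosen by their overlaps among 4 deposited peak lists. A site was a LRH-1 peak after hCG that shared at least 1 bp with no LRH-1 peak before hCG, shared at least 1 bp with a FAIRE peak before hCG, and shared none with a FAIRE peak after hCG. Presence and absence in the lists are thus how the sites were selected, and no test of them is given. Other LRH-1 peaks are classed in the same way, by the FAIRE peaks that the LRH-1 peak itself overlaps. The 415 sites were 4.41% of the 9413 LRH-1 peaks after hCG (exact Clopper-Pearson 95% interval 4 to 4.84). They were 7.58% of the 5473 gained LRH-1 peaks, meaning those that overlapped none before hCG (95% interval 6.89 to 8.32). Over the whole lists, 58.1% of LRH-1 peaks after hCG were gained, 13.7% lay at FAIRE peaks found only before hCG, and 46.2% of FAIRE peaks before hCG had no overlap after it. These shares enter the choice of the sites, so nothing is read from them.

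LRH-1 controls steroid and cholesterol genes in granulosa cells, the somatic cells around the oocyte, and ovulation and luteinisation in mice need it there. The surge of luteinising hormone turns these cells within hours from oestrogen-producing cells into future luteal cells, and many regulatory elements open or close as it does. A regulatory element that is in use is usually nucleosome-depleted and gives a FAIRE peak. LRH-1 is among the factors reported to engage sites on nucleosomes as well, which was not tested here.

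All 4 lists came from C57BL/6 mice labelled LRH-1 +/+, aged 22 to 25 days, that had received 5 IU of equine chorionic gonadotropin (eCG), so the groups before hCG were already stimulated to grow follicles. Groups before the signal were taken at 0 h, and groups after it 4 h past 5 IU of human chorionic gonadotropin (hCG), given 44 h after eCG in place of the natural hormone surge. Granulosa cells for FAIRE were obtained by puncturing the ovary, whereas the LRH-1 ChIP used slices of ovarian tissue (n = 5 per condition, per the labels' protocols), although its labels name granulosa cells. A LRH-1 peak can therefore come from another ovarian cell type than the FAIRE peak it overlaps. In both assays, a change in the share of cells and a change within each cell cannot be told apart. The labels state 2 replicates, but each assay and time has 1 list. There is no spread between replicates, no test was possible over samples, and intervals cover counting error only. The lists held 5886 and 9413 LRH-1 peaks and 21431 and 22791 FAIRE peaks before and after hCG. Positions are in mouse build mm9, and genes at these positions and their sequences were not analysed here because no mm9 genome or annotation was used.

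Most of the sites, but not all of them, lay at FAIRE peaks that met none after hCG, which the rule favours. The 415 LRH-1 peaks lay in 413 FAIRE peaks before hCG, because 2 of these FAIRE peaks held 2 LRH-1 peaks each. Of the 413 FAIRE peaks, 378 (91.5%, 95% interval 88.4 to 94) met no FAIRE peak after hCG anywhere along their length. Over all FAIRE peaks before hCG, 46.2% met none. The rule bars a FAIRE peak after hCG from touching the LRH-1 peak, so nothing is read from the higher share. The other 35 still met a FAIRE peak after hCG, only outside the LRH-1 peak. The lists show presence above the authors' threshold, so a FAIRE peak that is missing after hCG can still have had weaker signal. In the same way, a LRH-1 peak that is missing before hCG can have had weaker signal then. A gained peak is thus one new to the list.

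The 35 LRH-1 peaks at such partly retained FAIRE peaks differed from the other 380 in several values. The division between them was drawn after the values were seen. The rule also sets part of the differences in advance. In the 35, a FAIRE peak after hCG meets the FAIRE peak before hCG but may not touch the LRH-1 peak. That keeps the gap short and favours wide FAIRE peaks and off-centre summits. The FAIRE peaks before hCG had a median score of 117 in the 35, against 60.9 for the 380, and a median width of 1193 bp against 903 bp. The FAIRE score is the authors' own value per peak and ranks peaks within a list only. Over the whole list before hCG, FAIRE peaks that overlapped one after it also scored higher, with a median of 93.8 against 57. The LRH-1 summit, the position of strongest enrichment, lay a median of 477 bp from the middle of the FAIRE peak in the 35 and 92.5 bp in the 380. It lay inside the FAIRE peak in 22 of the 35 (62.9%) and in 370 of the 380 (97.4%). The gap to the nearest FAIRE peak after hCG had a median of 172 bp in the 35 and of 21434 bp in the 380. The 35 thus had, by their medians, broader and better-scoring FAIRE peaks and less central summits, although their FAIRE scores ran from 41.3 to 487 and 5 of their summits lay within 100 bp of the midpoint. LRH-1 enrichment was close in both, with median fold enrichments of 4.67 and 4.97.

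Most of these FAIRE peaks had held no LRH-1 peak at all before hCG, which the rule favours by barring any overlap with the new peak. Of all FAIRE peaks found only before hCG, 1452 of 9910 (14.7%) held one before it. Of the 413 FAIRE peaks, 398 (96.4%, 95% interval 94.1 to 98) held no LRH-1 peak before hCG anywhere, and 15 held one that the new peak did not overlap. Taking both conditions together, 364 FAIRE peaks (88.1%, 95% interval 84.6 to 91.1) had neither a LRH-1 peak before hCG nor any contact with a FAIRE peak after it. The rule favours both conditions, so nothing is read from these shares. In 10 of the 413, a LRH-1 peak after hCG that was not itself selected was listed beside the selected one.

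The selected LRH-1 peaks were modest ones. Their fold enrichment, the authors' ratio over the background of the peak caller, ran from 3.23 to 9.18 with a median of 4.97 and quartiles of 4.39 and 5.55. Their −log10 q, used as the LRH-1 score throughout, ran from 2.88 to 22.2 with a median of 6.78, while the median of the whole list after hCG was 8.35. All gained peaks also scored low, with a median −log10 q of 7.29 and a median rank at 62.7% of the list. Of the 415, 295 (71.1%) ranked in the lower 50% of the list, and their median rank was at 68.1%. The peaks had a median width of 275 bp, and 70 of them (16.9%, 95% interval 13.4 to 20.8) had the smallest width in the list, 233 bp, against 15.5% of gained peaks without FAIRE, 12.8% of all gained peaks and 8.96% of all LRH-1 peaks after hCG.

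Among gained peaks, these resembled the peaks without any FAIRE peak more than those in chromatin that was open after hCG. The 2844 gained peaks without a FAIRE peak had a median −log10 q of 6.96 and a median fold of 4.97. The 948 gained peaks at FAIRE peaks of both times stood at 7.67 and 5.08, and the 1266 at FAIRE peaks found only after hCG at 7.95 and 5.22. The 873 LRH-1 peaks that were already present before hCG and lay at FAIRE peaks found only before it, called kept, had a median −log10 q of 10.4 and a median fold of 5.7.

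**Figure D1:**
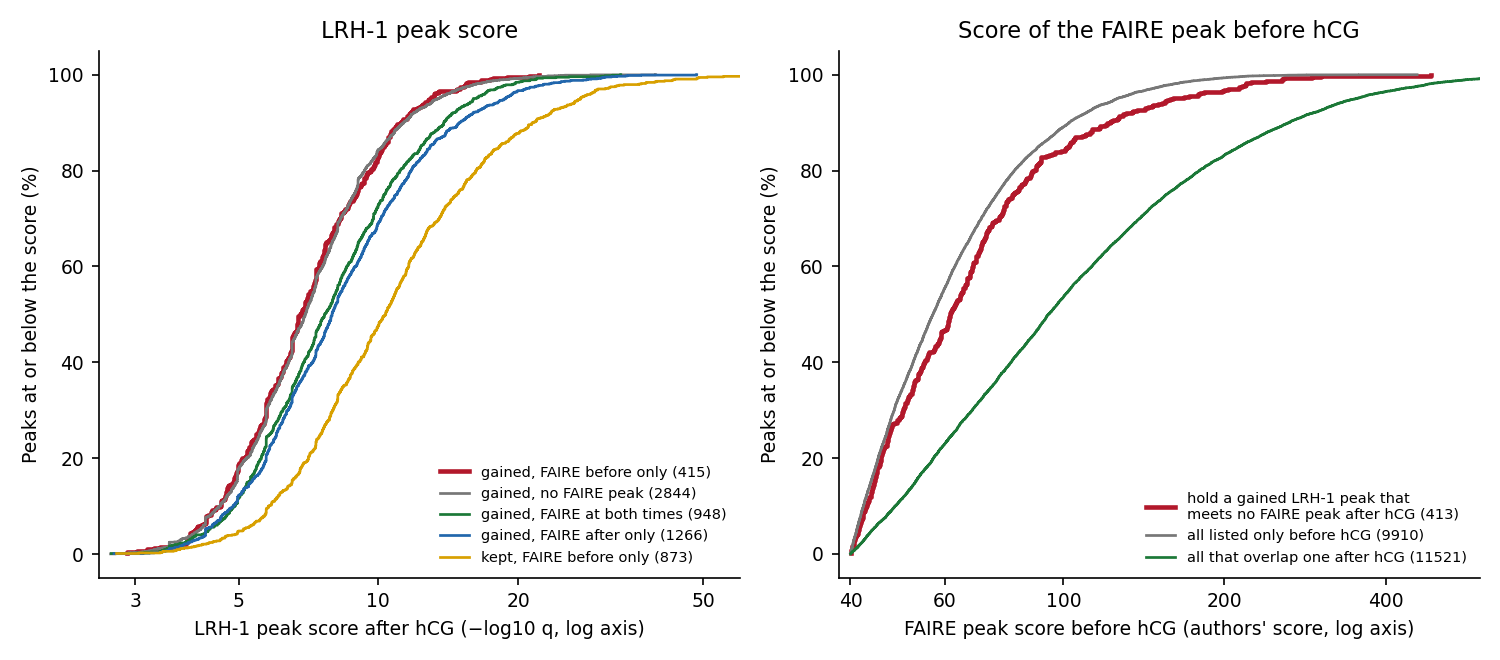
Cumulative distributions of the LRH-1 score after hCG (left, −log10 q on a log axis) by class of LRH-1 peak, and of the authors' FAIRE score before hCG (right, log axis) for the 413 FAIRE peaks under the selected LRH-1 peaks, all FAIRE peaks found only before hCG and all that overlapped one after it. The selected peaks (red, median 6.78) run along the gained peaks without FAIRE (median 6.96), and their FAIRE peaks (median 61.5) lie between those found only before hCG (median 57) and those found at both times (median 93.8).

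The share of gained peaks that fell into the selected class was lowest among the best-scoring ones. When the 5473 gained peaks were put in 10 groups of equal size by −log10 q, the best-scoring group held 24 of 548 (4.38%, 95% interval 2.83 to 6.45). The worst-scoring group held 48 of 548 (8.76%, 95% interval 6.53 to 11.4), and the 8 groups between ranged from 5.85% to 9.32%. Over the same groups, the share at FAIRE peaks found only after hCG ran the other way, from 37.4% in the best to 19.7% in the worst. Gained peaks at FAIRE peaks of both times made up 23.9% and 13% of these groups.

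The FAIRE peaks under the selected sites scored close to those found only before hCG, although 35 of the 413 met one after it. Their median score was 61.5 and their median width 915 bp, against 57 and 887 bp for all 9910 FAIRE peaks found only before hCG. Over the 380 sites whose FAIRE peak met none after hCG, the median score was 60.9. FAIRE peaks found only before hCG that held no LRH-1 peak at either time had a median score of 55.2. The FAIRE peaks under kept LRH-1 peaks stood at 75, and those under lost ones, listed before hCG and not after it, at 69.6. As with the 413, these include any FAIRE peak that met one after hCG only outside the LRH-1 peak. Of the selected sites, 145 had a FAIRE peak in the better-scoring 50% of the list before hCG and 120 a LRH-1 peak in the better-scoring 50% of the list after it. Only 40 of the 415 met both, and 190 met neither. Across the 415 sites the LRH-1 score and the FAIRE score showed almost no correlation, with Spearman's rho of 0.01 and Pearson's r of 0.01 on log values. The sites come from the same pair of lists and are not independent.

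Seen from the FAIRE peaks, new LRH-1 peaks were less frequent at those that disappeared than at those that stayed. Of 8458 FAIRE peaks found only before hCG that held no LRH-1 peak before it, 365 (4.32%, 95% interval 3.89 to 4.77) held one after it, and 364 of these are FAIRE peaks of the selected sites. Of 9846 such FAIRE peaks that overlapped one after hCG, 955 (9.7%, 95% interval 9.12 to 10.3) did. LRH-1 peaks already present were also listed again less often, at 846 of 1452 FAIRE peaks found only before hCG (58.3%, 95% interval 55.7 to 60.8) and at 1387 of 1675 that stayed (82.8%, 95% interval 80.9 to 84.6). At disappearing FAIRE peaks, gains made up for part of the losses. LRH-1 was at 1452 of the 9910 (14.7%) before hCG and at 1211 (12.2%) after it. Of these FAIRE peaks, 606 lost their LRH-1 peak and 365 acquired one. At the 11521 FAIRE peaks that stayed, 288 lost theirs and 955 acquired one, and the share with LRH-1 went from 14.5% to 20.3%. The whole LRH-1 list grew from 5886 to 9413 peaks.

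The lower share of gains at disappearing FAIRE peaks was found in 9 of 10 groups of FAIRE peaks by score. From the second-best to the worst-scoring group, gains ran from 3.53% to 5.91% at disappearing FAIRE peaks and from 8.71% to 12.3% at those that stayed. In the best-scoring group, where few FAIRE peaks disappeared, 5 of 29 gained LRH-1 (17.2%, 95% interval 5.85 to 35.8) against 123 of 1691 that stayed (7.27%, 95% interval 6.08 to 8.62). These shares set lists of a single time each against one another and carry no test.

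**Figure D2:**
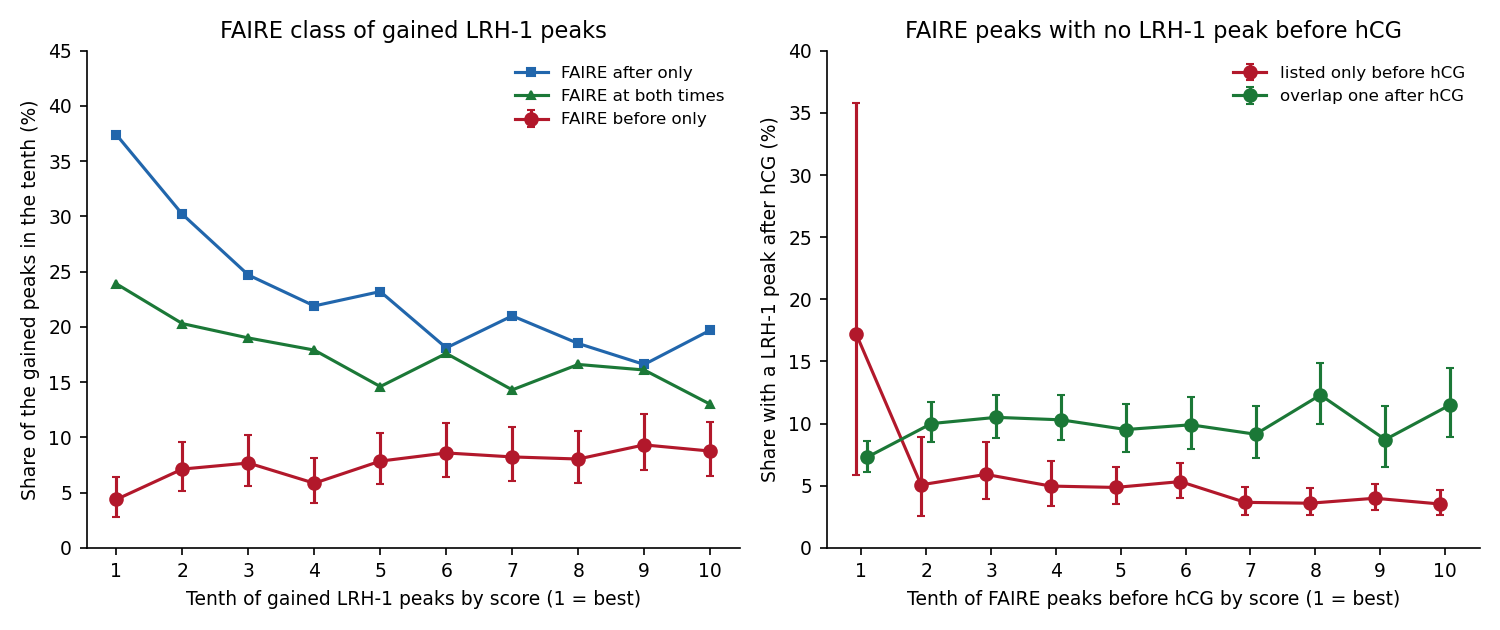
Left, share of gained LRH-1 peaks at FAIRE peaks found only before, only after or at both times, in 10 groups by LRH-1 score (1 is the best). Right, share of FAIRE peaks without a LRH-1 peak before hCG that held one after it, in 10 groups by FAIRE score, for FAIRE peaks found only before hCG and for those that overlapped one after it. Bars, drawn on the left for the selected class only, are exact 95% intervals. The selected class (left, red) is at 4.38% in group 1, 9.32% in group 9 and 8.76% in group 10. The disappearing FAIRE peaks (right, red) lie below the others in all groups but the best-scoring, which rests on 29 peaks.

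The selected LRH-1 summits lay near the middle of the former FAIRE peak. The distance from the summit to the FAIRE midpoint had a median of 101 bp and an upper quartile of 214 bp, in FAIRE peaks with a median width of 915 bp. The summit was within 100 bp of the midpoint in 206 of 415 (49.6%, 95% interval 44.7 to 54.6). It lay inside the FAIRE peak in 392 (94.5%, 95% interval 91.8 to 96.5), and the whole LRH-1 peak did so in 359 (86.5%). Kept LRH-1 peaks at FAIRE peaks found only before hCG were within 100 bp of the midpoint in 514 of 873 (58.9%, 95% interval 55.5 to 62.2), and lost ones in 389 of 633 (61.5%, 95% interval 57.5 to 65.3). The other gained classes were close to the selected sites, at 44.9% (95% interval 41.7 to 48.2) for FAIRE peaks of both times and 50.9% (95% interval 48.2 to 53.7) for those found only after hCG. Without the 35 sites on partly retained FAIRE peaks, the share of selected sites was 201 of 380 (52.9%).

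**Figure D3:**
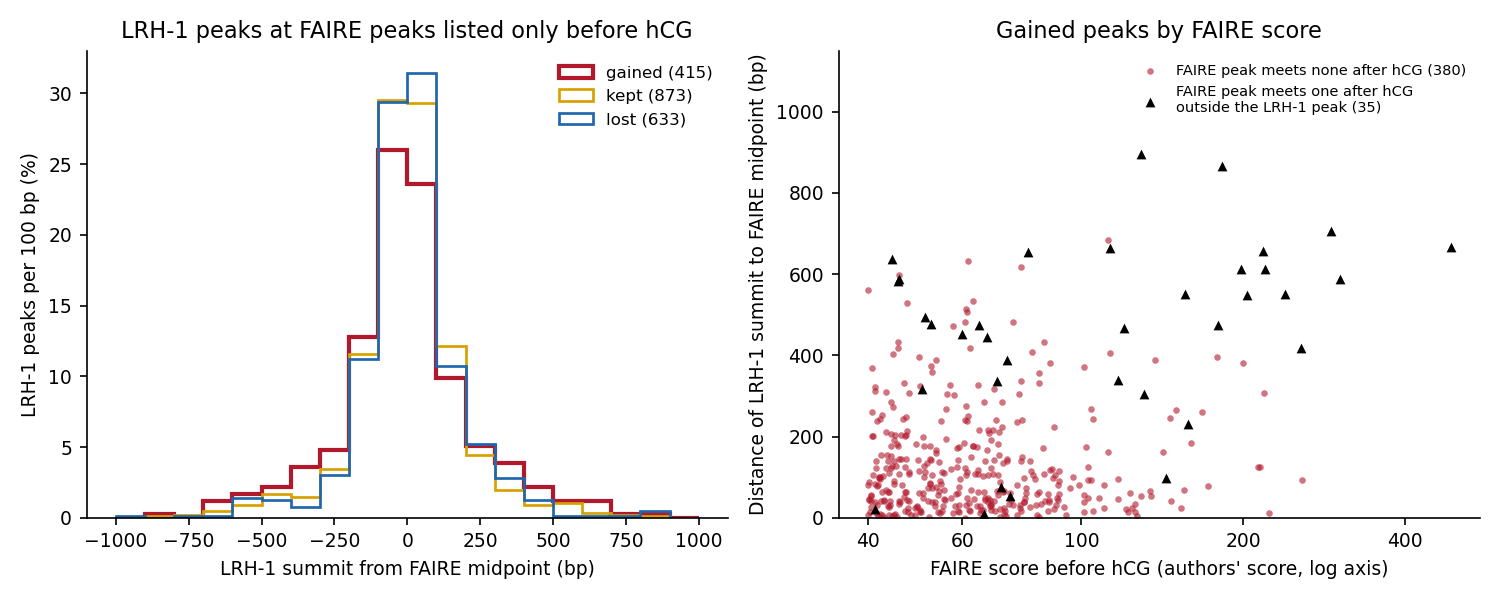
Left, distance from the LRH-1 summit to the midpoint of its FAIRE peak (bp), as percent of LRH-1 peaks per 100 bp, for gained, kept and lost LRH-1 peaks at FAIRE peaks found only before hCG (lost summits are those of the list before hCG). Right, that distance without its sign against the authors' FAIRE score (log axis) for each of the 415 selected sites, with the 35 whose FAIRE peak met one after hCG as triangles. All 3 distributions centre on the midpoint. The triangles (median 477 bp) lie above most of the 380 others (median 92.5 bp), a placing that the rule favours.

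The 10 best-scoring sites were clear of every edge of the rule. The highest −log10 q was 22.2, at chromosome 6 from 127511833 to 127512231, with 9.18-fold enrichment and rank 641 in the list. Its FAIRE peak before hCG, from 127510921 to 127512206, had a score of 74.7, and the nearest FAIRE peak after hCG lay 31068 bp away. Although it led the set, its summit was 482 bp from the FAIRE midpoint. The next, on chromosome 10 from 127013474 to 127013875, was enriched 8.17-fold (−log10 q 21.1) and shared 316 of its 402 bp with a FAIRE peak of 426 bp that had a score of 65.5. A LRH-1 peak before hCG lay 4456 bp from it.

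A pair on chromosome 8 followed. The site from 72462215 to 72462539 was enriched 7.45-fold (−log10 q 18.9), with its summit 74 bp from the middle of a FAIRE peak of score 78.8. The site from 109531075 to 109531367 was enriched 7.33-fold (−log10 q 17.7) in a FAIRE peak of score 91, the highest among these 10. The nearest LRH-1 peaks before hCG were 244482 and 55228 bp away, and the median of all selected sites was 62883 bp. On chromosome 19, the site from 10466612 to 10466984 was enriched 7-fold (−log10 q 17.4), and its summit was 1 bp from the middle of a FAIRE peak whose score, 42.9, was close to the lowest in the list, 40. The site on chromosome 2 from 6336946 to 6337347 was enriched 7.06-fold (−log10 q 16.6), 35264 bp from a FAIRE peak after hCG.

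The last 4 of these 10 had −log10 q values of 15.4 to 15.6. They lay on chromosome 1 from 163906437 to 163906830 (8.12-fold), on chromosome 16 from 17044480 to 17044824 (7.35-fold) and from 32659635 to 32659944 (6.73-fold), and on chromosome 7 from 116750793 to 116751097 (6.04-fold). Their FAIRE scores before hCG ran from 45.4 to 65, all under the list's median of 70.5. None of the 10 FAIRE peaks met a FAIRE peak after hCG or held a LRH-1 peak before it.

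Among the sites with the best FAIRE scores, 4 of the top 5 lay at a FAIRE peak that met one after hCG. All 5 FAIRE peaks belong to the best-scoring of 10 groups of FAIRE peaks before hCG. In that group only 81 of 2144 (3.78%) met none after hCG, so nothing is read from the 4 of 5. The FAIRE peak with the highest score, 487, on chromosome 17 from 13108535 to 13109659, shared 91 bp with the LRH-1 peak from 13108304 to 13108625. A FAIRE peak after hCG began 18 bp from that LRH-1 peak. The others of this kind were on chromosome 10 from 117230575 to 117230807 (FAIRE score 303, gap 152 bp) and on chromosome 7 from 25690162 to 25690452 (291, gap 503 bp) and from 52148806 to 52149043 (256, gap 10 bp). The exception was chromosome 12 from 12844820 to 12845052. It had a FAIRE peak with a score of 258 before hCG, LRH-1 enriched 4.99-fold 94 bp from its middle, and no FAIRE peak after hCG within 27131 bp.

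Only 4 sites ranked in the best 25% of both lists, a description chosen after the values were seen. A pair of them, on chromosome 7 from 28293698 to 28294101 and on chromosome 5 from 130619498 to 130619902, lay on FAIRE peaks that met one after hCG, and the first shared only 3 bp with its FAIRE peak. The other pair had no such contact. On chromosome 7, the LRH-1 peak from 105296169 to 105296565 was enriched 6.03-fold (−log10 q 13) 46 bp from the middle of a FAIRE peak of score 117. On chromosome 17, the one from 12241599 to 12241994 was enriched 6.89-fold (−log10 q 12.4) 54 bp from the middle of a FAIRE peak of score 135. In both, LRH-1 was absent from the list before hCG within 22618 and 52383 bp.

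Away from all edges of the rule lay 349 of 415 sites (84.1%, 95% interval 80.2 to 87.5), a subset defined after the values were seen. Those 349 had the summit inside a FAIRE peak that met none after hCG and held no LRH-1 peak before it, with over 500 bp to the nearest of either. Their median fold was 4.97, their median −log10 q 6.84 and their median FAIRE score 60.9, close to the values of all 415. Just inside the rule, the shortest overlaps with a FAIRE peak before hCG were 3 bp (chromosome 7 from 28293698 to 28294101), 5 bp (chromosome 9 from 100542893 to 100543191) and 10 bp (chromosome 5 from 114814629 to 114814983). Just outside it, gained peaks missed such a FAIRE peak by 7, 10 and 13 bp, on chromosomes 17, 8 and 11. The smallest gaps to a FAIRE peak after hCG were 3 bp (chromosome 13 from 37544512 to 37544871), 8 bp (chromosome 6 from 42642544 to 42642871) and 10 bp, whereas the gained peaks just outside overlapped one by 7, 15 and 28 bp, on chromosomes 4, 11 and 3. The smallest gaps to a LRH-1 peak before hCG were 8 bp (chromosome 9 from 77431618 to 77431850) and 9 bp (chromosome 10 from 94781021 to 94781280, and chromosome 4 from 101343019 to 101343256). The kept peaks just outside overlapped one by 39, 66 and 82 bp, on chromosomes 16, 7 and 1.

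FAIRE peaks after hCG and LRH-1 peaks before it were more frequent at short range from the selected sites than from gained peaks without FAIRE. A FAIRE peak after hCG lay within 500 bp of 38 selected sites (9.16%, 95% interval 6.56 to 12.4), of 129 of 2844 gained peaks without FAIRE (4.54%, 95% interval 3.8 to 5.37) and of 38 of 873 kept peaks at FAIRE peaks found only before hCG (4.35%, 95% interval 3.1 to 5.93). In 32 of the 38 selected sites it was the one that met the FAIRE peak before hCG itself. A LRH-1 peak before hCG lay within 500 bp of 16 selected sites (3.86%, 95% interval 2.22 to 6.19) and of 40 gained peaks without FAIRE (1.41%, 95% interval 1.01 to 1.91). For gained peaks at FAIRE peaks of both times this share was 2.22% (95% interval 1.38 to 3.37), and the interval overlaps that of the selected sites. For those at FAIRE peaks found only after hCG it was 0.869% (95% interval 0.435 to 1.55). At longer range the selected sites came close to gained peaks without FAIRE and, for FAIRE peaks after hCG, to the kept peaks. The median gap to a FAIRE peak after hCG was 18832 bp for the selected sites, 15797 bp for gained peaks without FAIRE and 15608 bp for the kept peaks.

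**Figure D4:**
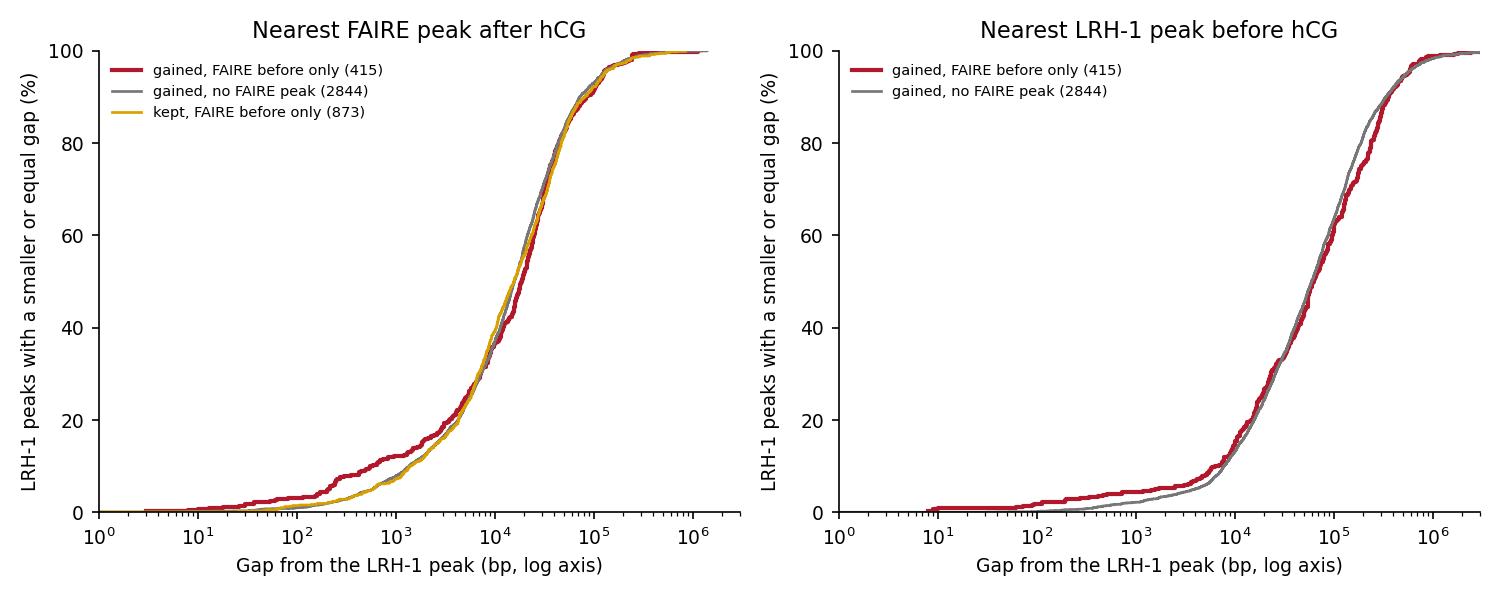
Cumulative share of LRH-1 peaks after hCG by the gap (bp, log axis) to the nearest FAIRE peak after hCG (left) and to the nearest LRH-1 peak before hCG (right). The selected sites (red) lie above the gained peaks without FAIRE at gaps of up to 500 bp, at 9.16% against 4.54% on the left and 3.86% against 1.41% on the right, and all curves meet at longer gaps.

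A FAIRE peak found only after hCG was not usually listed close to a selected LRH-1 peak. Such a FAIRE peak overlaps none before hCG by definition. It therefore cannot lie on the FAIRE peak under the site, which lowers the counts at short range. A FAIRE peak found only after hCG lay within 1000 bp of 10 selected sites (2.41%, 95% interval 1.16 to 4.39) and within 5000 bp of 49 (11.8%, 95% interval 8.86 to 15.3), with a median gap of 35264 bp. For gained peaks without FAIRE, where no such bar holds, the share within 1000 bp was 3.97% (95% interval 3.29 to 4.76). Within 5000 bp it was 11.3% (95% interval 10.1 to 12.5).

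Within 50 kb to either side, and with the site's own FAIRE peak left out, the surroundings of the selected sites held both kinds of change. A further FAIRE peak found only before hCG was present around 220 of 415 sites (53%, 95% interval 48.1 to 57.9), and one found only after hCG around 242 (58.3%, 95% interval 53.4 to 63.1). Summed over all sites, there were 1.16 neighbours found only after hCG for each one found only before it, near the 1.14 of the whole lists. This ratio was 1.1 around the kept peaks at FAIRE peaks found only before hCG, 1.31 around gained peaks without FAIRE, 1.44 around those at FAIRE peaks of both times and 1.62 around those at FAIRE peaks found only after hCG. A lost LRH-1 peak was near 80 selected sites (19.3%, 95% interval 15.6 to 23.4), while the other classes ran from 14.7% (95% interval 12.8 to 16.8) of the gained peaks at FAIRE peaks found only after hCG through 17.2% without FAIRE and 17.3% at FAIRE peaks of both times to 22.2% of the kept peaks. Another gained LRH-1 peak was near 178 selected sites (42.9%, 95% interval 38.1 to 47.8), against 42.7% to 47.2% in the other 4 classes. Neighbouring sites share neighbours, so these shares are less precise than their intervals.

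**Figure D5:**
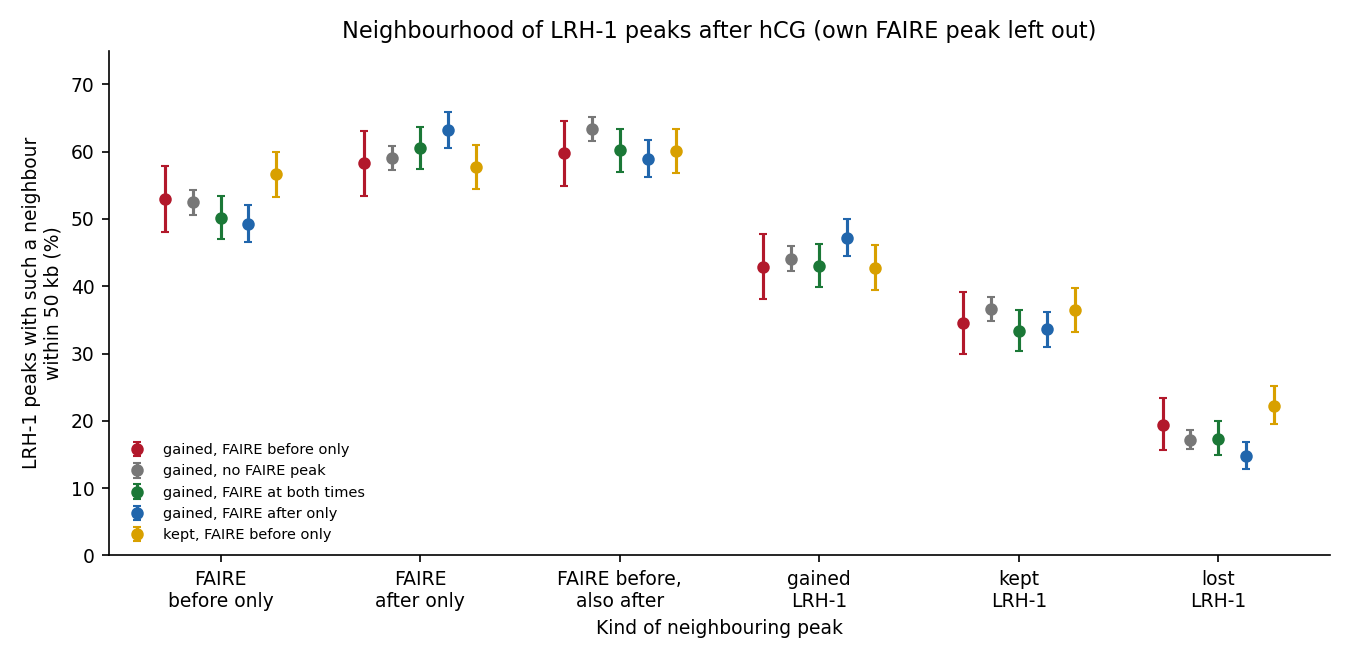
Percent of LRH-1 peaks after hCG with at least 1 neighbouring peak of each kind within 50 kb, by class of LRH-1 peak, with exact 95% intervals. The selected sites (red) had a further FAIRE peak found only before hCG in 53% and one found only after hCG in 58.3%, and gained peaks at FAIRE peaks found only after hCG (blue) in 49.3% and 63.2%.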

How the data were processed

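Per the submitters' processing notes, BWA aligned the reads to mm9, and MACS2 2.1.0 and bedtools were used for LRH-1. In the deposited FAIRE lists a peak has its coordinates, a name of the form MACS_peak and a score of 40 or more. In the deposited LRH-1 lists it has a fold enrichment (a ratio), p-value and q-value as −log10, a score of 10 times −log10 q cut to a whole number, and a summit. Read depth, caller settings and pooling of the 2 replicates are not stated. RNA was not used here.

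Overlaps were computed with Python 3.11.15 (numpy 2.4.6; pandas 2.3.3; scipy 1.17.1; matplotlib 3.10.9), using functions tested on simulated intervals. The FAIRE midpoint stands in for a summit, a gap counts the bases between 2 peaks, starts count from 1, and intervals of shares are exact at 95%. The sites, classes and alternatives were chosen with earlier results of these data known. Named sites were the 10 best by LRH-1 score, the 5 best by FAIRE score, those sharing a FAIRE peak or 100 kb, and 3 on each side of each edge of the rule. Alternatives changed the overlap, the thresholds and the extent of the FAIRE peak.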

Additional observations from a re-analysis of the deposited data

How the results depend on the processing

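The number of selected sites, 415 by the rule, was 338 to 435 under 6 of 8 alternatives. It was 180 with as many LRH-1 peaks after as before hCG, and 145 with the better-scoring 50% of the FAIRE peaks before hCG, both built from fewer peaks. Their share of gained peaks, 7.58%, was then 6.6% and 2.65%, and it was 6.72% when peaks within 500 bp counted as present in the lists that must be empty. The median fold of 4.97 was 5.67 with as many LRH-1 peaks as before hCG and 5.14 with −log10 q of at least 5. The share of sites whose FAIRE peak met none after hCG, 91.6%, was 99.2% with the limit of 500 bp, 84.1% with the better-scoring FAIRE peaks, and 100% where the rule itself required it. The ratio of gained peaks at after-only to those at before-only FAIRE peaks, 3.05, was 4.17 with equal LRH-1 numbers and 11.2 with the better-scoring FAIRE peaks before hCG, and 2.8 to 3.36 otherwise. The value of 11.2 could only rise, since that alternative shortens the list before hCG and not the one after it. No paired analysis was possible because each assay and time has 1 list.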

Other observations

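The selected sites were spread over all 20 chromosomes with peaks. Their share of the gained LRH-1 peaks ran from 4.82% on chromosome 15 (11 of 228, exact 95% interval 2.43 to 8.47) to 10.9% on chromosome X (6 of 55, 95% interval 4.11 to 22.2). The interval of every chromosome holds the share of 7.58% over all chromosomes. Chromosome 2 had the most sites, 40 of 420 gained peaks (9.52%), and chromosome 8 had 26 of 253 (10.3%). Per 100 FAIRE peaks found only before hCG, the number of sites was between 2.45 on chromosome 18 and 5.52 on chromosome 8, and it was 2.64 on chromosome X.

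The sites were mostly single. No stretch of 100 kb held more than 2 of them, and 16 pairs lay within that distance. The 2 FAIRE peaks that held a pair were both on chromosome 12. In the first, from 26797292 to 26798501 (score 83.3), the LRH-1 peaks from 26797584 to 26798100 and from 26798152 to 26798384 were 51 bp apart, enriched 3.95-fold and 3.88-fold, and 755824 bp or more from any LRH-1 peak before hCG. In the second, from 71579456 to 71580425 (score 64.1), the LRH-1 peaks from 71579464 to 71579744 and from 71579959 to 71580270 were 214 bp apart, enriched 5.27-fold and 4.97-fold. The closest pair in separate FAIRE peaks was on chromosome 8, where the peaks from 122471369 to 122471670 and from 122476071 to 122476317 were 4400 bp apart and enriched 4.44-fold and 4.14-fold. All 6 of these enrichments were below the median of the whole LRH-1 list after hCG, 5.31.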
